A study of Mus musculus with 12 samples.

Results

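The genes described here were 10 transcriptional regulators of Schwann cell myelination, 7 that promote it (*Sox10*, *Pou3f1*, *Pou3f2*, *Egr2*, *Nab1*, *Nab2* and *Yy1*) and 3 that oppose it (*Jun*, *Sox2* and *Id2*). They were chosen by name, matched on the gene symbols of the deposited tables and joined by Ensembl identifier to the read counts, which gave all 10 among 43432 genes. Every one of them was retained by the filter on low counts, which left 17257 genes to test. RNA was sequenced from the sciatic nerve of mice aged 1 month, with 1 nerve of 1 mouse in each of 12 libraries and 4 libraries per group. The groups were untreated WT controls (*Mtmr2* wt/wt, libraries 4497 to 4500), untreated *Mtmr2* KO mice (*Mtmr2* -/-, 4501 to 4504) and niacin-treated *Mtmr2* KO mice (*Mtmr2* -/-, 4505 to 4508). Treated mice received niacin by intraperitoneal injection at 120 mg/kg from postnatal day 10, then slow-release niacin (Niacin-SR) by gavage from day 21 to day 30. Untreated here means without niacin, and the paper describes the KO mice set against the treated ones as given vehicle. The *Mtmr2* mutation is constitutive, so every cell of the nerve carries it, and no niacin-treated WT group was analysed here. Each group held 3 males and 1 female, and the labels do not say which library was which.

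Myelinating Schwann cells are specified and held in their state by a chain of transcription factors. SOX10 is needed at every stage of the lineage and, together with the POU factors POU3F1 (also called Oct6 or SCIP) and POU3F2 (Brn2), switches on *Egr2* (*Krox20*), whose product drives the genes of the myelin sheath. NAB1 and NAB2 bind EGR proteins and act as their co-regulators, and YY1 contributes to the induction of *Egr2*. JUN, SOX2 and ID2 are typical of immature or injured Schwann cells, oppose the EGR2 programme and are kept low in healthy adult nerve. *Mtmr2* encodes a phosphoinositide phosphatase whose loss causes Charcot-Marie-Tooth disease type 4B1, a demyelinating neuropathy with redundant loops of myelin, and niacin was tested as a treatment.

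Promoter sequences of 8 of the 10 genes were found in RefSeq (GRCm38.p6), each covering 250 bases before to 50 bases after a transcription start. These windows were searched on both strands for letters recognised by the same families of factors: GCGNGGGCG for EGR proteins, ACAAAG for SOX proteins, ATGCAAAT (the octamer) for POU factors, GCCATNTT for YY1, and TGANTCA (AP-1) and TGACNTCA (CRE-like) for JUN-containing dimers. The 250 bases upstream of 4 starts are shown because they hold such letters, which are in capitals.
*Nab1*, chr1:52500449-52500698, minus strand: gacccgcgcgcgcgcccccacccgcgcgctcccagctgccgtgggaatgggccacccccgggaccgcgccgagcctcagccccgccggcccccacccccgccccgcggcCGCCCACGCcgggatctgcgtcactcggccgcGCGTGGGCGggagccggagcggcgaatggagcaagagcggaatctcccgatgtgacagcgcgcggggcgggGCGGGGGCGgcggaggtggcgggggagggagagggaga
*Egr2*, chr10:67537619-67537868, plus strand: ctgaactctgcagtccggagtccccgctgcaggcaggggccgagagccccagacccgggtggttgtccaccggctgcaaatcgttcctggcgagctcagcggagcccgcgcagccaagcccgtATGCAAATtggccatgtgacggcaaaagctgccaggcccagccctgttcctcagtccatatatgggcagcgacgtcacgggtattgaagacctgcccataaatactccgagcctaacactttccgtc
*Jun*, chr4:95052223-95052472, minus strand: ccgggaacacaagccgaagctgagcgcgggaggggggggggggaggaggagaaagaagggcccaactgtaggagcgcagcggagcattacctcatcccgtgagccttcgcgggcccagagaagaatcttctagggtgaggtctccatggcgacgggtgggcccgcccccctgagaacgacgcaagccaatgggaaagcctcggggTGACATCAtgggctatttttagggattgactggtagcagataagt
*Sox2*, chr3:34649745-34649994, plus strand: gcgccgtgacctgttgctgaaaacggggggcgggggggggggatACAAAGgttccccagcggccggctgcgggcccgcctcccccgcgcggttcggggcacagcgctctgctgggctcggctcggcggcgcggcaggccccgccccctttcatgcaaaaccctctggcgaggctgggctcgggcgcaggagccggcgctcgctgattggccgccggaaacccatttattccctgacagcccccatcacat

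The *Nab1* window held 3 EGR matches, from -141 to -133 on the minus strand and from -109 to -101 and -38 to -30 on the plus strand, counted from the transcription start. Only 5.55% of all 32851 promoter windows of that length held GCGNGGGCG at least once. The *Pou3f2* window also held it, from base -8 to base 1. *Egr2* has 5 starts in this set, and the windows of 3 of them, which overlap, held 1 and the same octamer match, at -127 to -120 from the start shown. The octamer was found in 1.74% of all windows. *Jun* held the CRE-like letters from -45 to -38 (8.83% of all windows) and *Sox2* held ACAAAG from -206 to -201 (18.7%). No match for YY1 (6.05%) or AP-1 (7.81%) was found in the windows of the 8 genes. A match is a description of letters, and binding was not measured.

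The pair of POU factors shows how alike the coding parts of members can be while their transcripts differ. The 90 coding bases in which *Pou3f1* and *Pou3f2* are most alike are printed with the bases that differ in capitals.
*Pou3f1*, chr4:124658532-124658621, plus strand, coding bases 826 to 915: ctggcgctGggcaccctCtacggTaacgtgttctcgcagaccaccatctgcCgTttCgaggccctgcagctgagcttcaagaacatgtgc
*Pou3f2*, chr4:22487160-22487249, minus strand, coding bases 883 to 972: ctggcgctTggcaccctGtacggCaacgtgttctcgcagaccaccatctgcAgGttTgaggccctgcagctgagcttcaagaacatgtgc

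They share 84 of 90 bases there, and the longest run of letters that both transcripts share is 38 bases, shorter than a read of 150 bases. The coding parts are both rich in G and C, at 72.9% in *Pou3f1* and 65.8% in *Pou3f2*, but over the whole transcript GC content is 63.9% in *Pou3f1* and 44.4% in *Pou3f2*. This difference bears on the niacin comparisons.

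Library totals were 20763951 to 33191106 counts. *Mtmr2* itself, counted over the whole gene so that the deleted part is not resolved, was at 128 to 161 CPM (counts scaled to library size) in WT nerves, at 66.8 to 73.5 CPM in the niacin-treated nerves, and at 71.6, 84.7 and 69.5 CPM in *Mtmr2* KO libraries 4501, 4502 and 4504. The library labelled *Mtmr2* KO 4503 was at 143 CPM, inside the WT range. The library labelled *Mtmr2* KO 4502 stood apart in another way, since its level of a gene depended on that gene's GC content. In the decile of genes with the highest transcript GC content (above 57.7%) the median log2 difference from the WT mean was -0.52 in 4502, -0.45 to -0.27 in the 4 niacin-treated libraries and between -0.11 and 0.04 in the other libraries. In the decile with the lowest GC content it was 0.54 in 4502, 0.16 to 0.41 in the niacin-treated libraries and between -0.05 and 0.04 elsewhere. Results are therefore given with and without 4502 and 4503 where these matter, and with and without a correction of each library for GC content and transcript length. Markers of myelinating Schwann cells (*Prx*, *Mag*, *Pmp22*, *Drp2* and *Ncmap*) were abundant in every library, summing to 31467 to 50301 CPM. Markers of skeletal muscle (*Acta1*, *Ckm*, *Mylpf*, *Tnnt3* and *Myh4*) summed to 2778 and 2611 CPM in niacin-treated libraries 4506 and 4507 and to 8.65 to 76.5 CPM in the other 10.

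**Figure D1:**
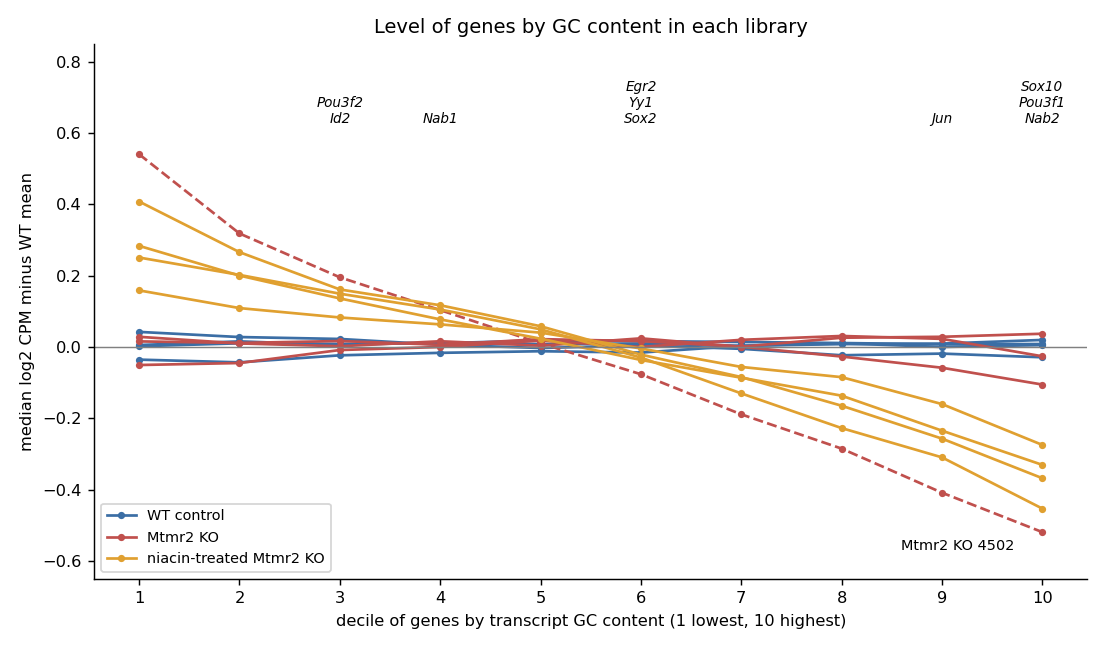
Median difference in log2 CPM from the WT mean (y axis) for genes grouped into deciles by the GC content of their longest transcript (x axis), 1 line per library, with the genes described here written above the decile they fall in. The 4 niacin-treated libraries and *Mtmr2* KO 4502 (dashed) fall from left to right, to between -0.52 and -0.27 in the last decile, which holds *Sox10*, *Pou3f1* and *Nab2*, while the other 7 libraries stay flat.

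The levels of the regulators in WT nerve, per kilobase of exon so that genes can be compared, spanned from *Sox10* at 155 ± 14.1 CPM per kb (SD, n = 4) to *Pou3f2* at 2.21 ± 0.0811. After *Sox10* came *Egr2* at 41.1 ± 5.60 CPM per kb, followed by *Nab1* at 32.3 ± 1.72. The next 4 lay close together, with *Jun* at 14.1 ± 1.04, *Nab2* at 12.8 ± 0.572, *Pou3f1* at 10.5 ± 1.84 and *Yy1* at 10.3 ± 0.705 CPM per kb, and each of them overlapped its neighbour in this order. *Id2* followed at 6.93 ± 0.260 and *Sox2* at 4.53 ± 0.402 CPM per kb, with no overlap between neighbours from *Id2* downwards. Thus the 3 opposing regulators were not the lowest as a set, and *Jun* was above both POU factors. *Sox10*, *Egr2* and *Nab1* kept the first 3 places and *Sox2* and *Pou3f2* the last 2 in all 3 groups, although the ranges of *Egr2* and *Nab1* overlapped in both KO groups. These are levels of whole nerve, in which fewer cells of a type and less RNA per cell cannot be told apart.

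*Sox10* (chr15:79154908-79165240), the lineage factor, was at 486, 500, 493 and 408 CPM in the WT libraries. It was at 729, 278, 453 and 509 CPM in *Mtmr2* KO 4501 to 4504. In the niacin-treated libraries 4505 to 4508 it was at 288, 353, 270 and 247 CPM. All niacin-treated values lay below all WT values, and the KO values ran from below the WT range to far above it.

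*Pou3f1* (chr4:124656807-124660655) was at 48.2, 37.5, 43.6 and 31.9 CPM in WT, at 47.2, 19.9, 23.0 and 30.9 CPM in KO and at 26.1, 27.4, 22.3 and 16.8 CPM in niacin-treated KO nerves. *Pou3f2* (chr4:22482780-22488366) was at 13.02, 12.11, 12.02 and 12.30 CPM in WT, at 10.9, 8.25, 5.90 and 10.8 CPM in KO and at 7.15, 6.07, 6.67 and 6.26 CPM in niacin-treated KO nerves. Both POU factors, which act with SOX10 upstream of *Egr2*, were lower in all niacin-treated libraries than in all WT libraries. *Pou3f2* was also lower in all 4 KO libraries than in every WT library, and its lowest KO value was that of 4503. The SD of *Pou3f2* in WT was 0.453 CPM, on counts of 331 to 360 per library.

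*Egr2* (chr10:67535475-67542188), the activator of the myelin genes, was at 158, 118, 152 and 129 CPM in WT. In KO 4501 to 4504 it was at 91.2, 57.0, 294 and 170 CPM, so that 4502 was the lowest and 4503 the highest of the 12 libraries. In niacin-treated KO nerves it was at 135, 166, 107 and 123 CPM, overlapping the WT values.

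The EGR co-regulators differed from each other. *Nab1* (chr1:52457294-52500679) was at 137, 122, 136 and 135 CPM in WT, at 130, 170, 111 and 135 CPM in KO and at 172, 153, 149 and 141 CPM in niacin-treated KO nerves. *Nab2* (chr10:127660918-127668568) was at 38.7, 37.8, 35.3 and 39.0 CPM in WT, at 58.7, 29.5, 40.0 and 41.9 CPM in KO and at 29.9, 34.7, 24.9 and 25.7 CPM in niacin-treated KO nerves. The niacin-treated libraries were thus above all WT libraries for *Nab1* and below all of them for *Nab2*. *Nab2* overlaps the 3' end of *Stat6* and part of *Nemp1* on the opposite strand, with means of 3488 and 432 counts per library against 937 for *Nab2*, and since the strand setting of the counting is not given, reads in the overlap cannot be told apart.

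*Yy1* (chr12:108792973-108820148) was at 66.1, 67.4, 71.3 and 60.4 CPM in WT, at 70.3, 42.3, 74.4 and 51.3 CPM in KO and at 45.0, 47.8, 42.0 and 38.3 CPM in niacin-treated KO nerves. Again the niacin-treated libraries were all below WT.

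Among the opposing regulators, *Jun* (chr4:95049034-95052222), which drives the repair state after injury, was at 48.4, 47.2, 43.7 and 41.1 CPM in WT, at 39.0, 24.5, 35.7 and 44.3 CPM in KO and at 37.0, 39.5, 37.1 and 26.1 CPM in niacin-treated KO nerves. *Sox2* (chr3:34650405-34652461), a factor of immature Schwann cells, was at 10.1, 9.06, 9.87 and 8.27 CPM in WT, at 16.2, 5.16, 13.5 and 8.66 CPM in KO and at 6.91, 6.29, 6.44 and 5.83 CPM in niacin-treated KO nerves. *Id2* (chr12:25093799-25097140), an inhibitor of basic helix-loop-helix factors, was at 17.3, 16.0, 17.2 and 17.2 CPM in WT, at 19.9, 24.6, 22.2 and 18.1 CPM in KO and at 20.9, 18.1, 23.1 and 21.3 CPM in niacin-treated KO nerves. *Jun* and *Sox2* were lower and *Id2* higher in every niacin-treated library than in every WT library, and *Id2* was also higher in every KO library. *Sox2* rests on 115 to 465 counts per library, the smallest numbers of the set together with *Pou3f2*. *Sox2* also lies within the span that the annotation gives to the non-coding gene *Sox2ot*, which was not analysed here.

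**Figure D2:**
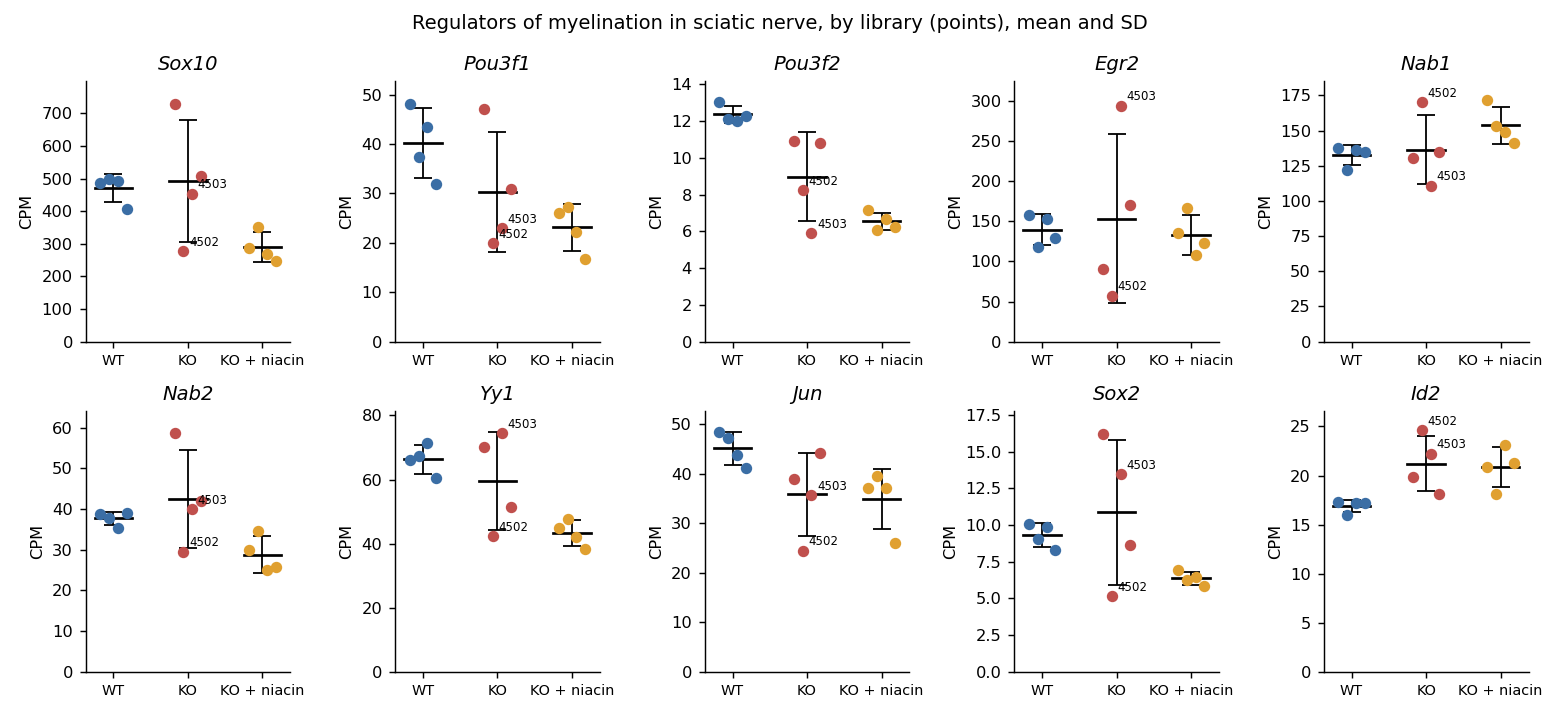
CPM of the 10 regulators (y axis, 1 panel per gene, from 0) in the 4 WT, 4 *Mtmr2* KO and 4 niacin-treated *Mtmr2* KO libraries (points), with the mean (bar) and SD (whisker) and with KO libraries 4502 and 4503 named. The KO points are scattered more widely than the WT points and the niacin-treated points. The niacin-treated points lie below WT for 7 genes and above it for *Nab1* and *Id2*.

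The KO libraries differed from each other more than the WT libraries did. The SD of log2 CPM was larger in the 4 KO than in the 4 WT libraries for 10 of 10 regulators, by 2.12-fold for *Pou3f1* to 8.03-fold for *Pou3f2*. For *Egr2* it was 0.20 in WT, 1.03 in KO and 0.26 in niacin-treated KO nerves, and for *Sox2* 0.13, 0.73 and 0.10. The KO group also had the largest median SD over all genes tested, at 0.40 against 0.16 in WT and 0.22 in niacin-treated KO nerves, so a wide KO group was not particular to the regulators. The 2 libraries that stand apart set some of the extremes over the 12 libraries. Library 4502 held the lowest value of 3 regulators (*Egr2*, *Jun* and *Sox2*) and the highest of *Id2*, and 4503 held the lowest of *Pou3f2* and *Nab1* and the highest of *Egr2* and *Yy1*. KO library 4501 held the highest of *Sox10*, *Nab2* and *Sox2*. WT library 4497 held the highest of 3 regulators and niacin-treated library 4508 the lowest of 3. Where *Egr2* was highest, immediate early genes were also high. These 17 genes, induced within minutes by stimulation or handling of tissue and including *Fosl2*, *Nr4a1* and *Jund*, summed to 859 CPM in 4503 and to 367 to 515 CPM in the other 11 libraries, and 8 of the 17 had their highest value in 4503. The part of this in the *Egr2* value was not tested.

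**Figure D3:**
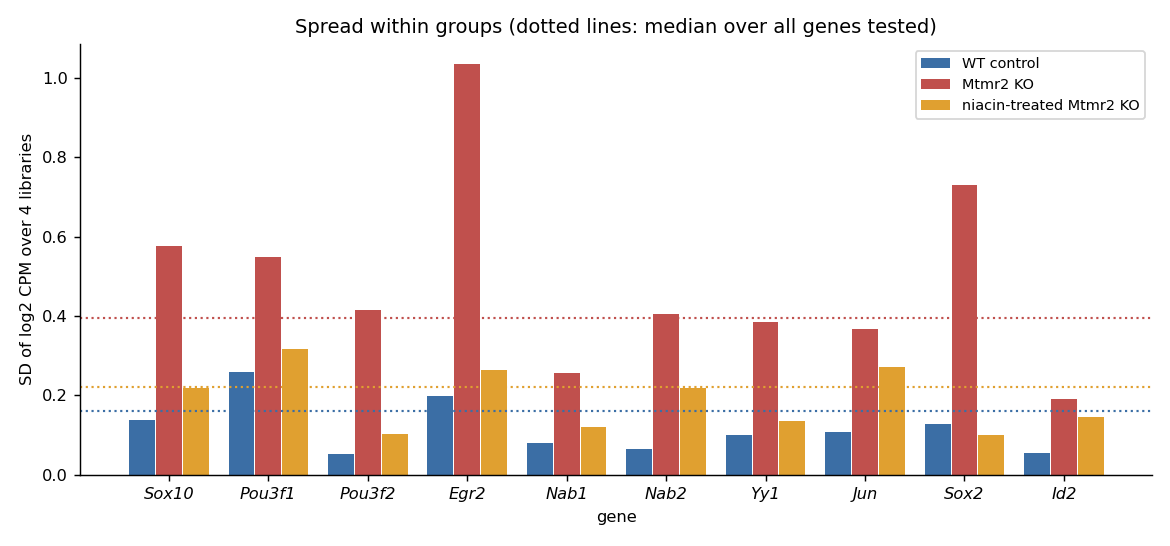
SD of log2 CPM over the 4 libraries of each group (y axis, bars) for each regulator (x axis), with the median SD of all genes tested in each group as a dotted line. The KO bar is the highest for every gene, reaching 1.03 for *Egr2*, and the dotted lines stand at 0.16 (WT), 0.40 (KO) and 0.22 (niacin-treated KO).

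The comparison of *Mtmr2* KO with WT nerves asked whether loss of *Mtmr2* changed the regulators. None of the 10 passed the test (edgeR quasi-likelihood, adjusted p under 0.05), against 0.267% of all genes tested (46 of 17257). The smallest p belonged to *Id2*, with a log2 fold change of 0.33 ± 0.12 (SE) and an adjusted p of 0.201, and to *Pou3f2*, at -0.46 ± 0.18 with an adjusted p of 0.208. These were also the only members whose KO and WT values did not overlap. *Id2* was higher, against 3.85% of all genes, and *Pou3f2* lower, against 5.46%. Each had an exact permutation p of 0.0286 (two-sided), the smallest that 4 against 4 allows, which follows from the lack of overlap. For the others the log2 differences ran from -0.41 ± 0.24 (*Pou3f1*) and -0.33 ± 0.17 (*Jun*) to 0.23 ± 0.26 (*Sox2*), and *Egr2* was at 0.13 ± 0.37. The direction of *Egr2* was set by 1 library, since it was -0.40 (adjusted p = 0.472) without 4503 and 0.41 (0.553) without 4502. That of *Sox10*, 0.06 ± 0.23, became -0.20 without 4501. Without both 4502 and 4503, *Pou3f2* was at -0.18 and *Id2* at 0.18 (edgeR adjusted p = 0.741 and 0.713), and *Sox10* at 0.40 (0.464). After correction for transcript GC content and length, *Pou3f2* (-0.45, adjusted p = 0.195) was again lower without overlap, against 5.12% of genes. *Id2* (0.24, adjusted p = 0.259) then overlapped, and *Nab2* (0.33 against 0.17 uncorrected, adjusted p = 0.193) was higher without overlap, against 5.36% of genes. With coding GC content in the correction, *Pou3f2* was at -0.20 and *Id2* at 0.37, and no member was called with either correction.

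The comparison of niacin-treated with untreated *Mtmr2* KO nerves asked whether treatment altered the regulators in the mutant. Means were lower for 9 of the 10 and higher for *Nab1*. None of the 10 was called, against 1.43% of all genes tested (246 of 17257), and before any correction no member separated the groups, against 3.6% of genes higher and 3.4% lower without overlap. The largest log2 differences were -0.78 ± 0.27 for *Sox2* (adjusted p = 0.135), -0.77 ± 0.23 for *Sox10* (0.103), -0.56 ± 0.18 for *Nab2* (0.115) and -0.46 for both *Yy1* (± 0.16, 0.144) and *Pou3f2* (± 0.18, 0.185). *Jun* and *Id2* were at -0.04 ± 0.17 and -0.03 ± 0.12. After correction for transcript GC content and length, *Sox10* (-0.53, adjusted p = 0.0986) and *Yy1* (-0.34, adjusted p = 0.101) were lower in every treated than in every untreated library, against 4.49% of genes lower and 4.01% higher without overlap. *Pou3f1* moved from -0.39 to -0.10, *Nab2* to -0.37 and *Sox2* to -0.83, and no member was called. With coding GC content in the correction *Sox10* was at -0.55, *Yy1* at -0.19, *Pou3f2* at -0.20 and *Sox2* at -0.60, and again none was called.

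These calls depended on the model and on how the uneven KO libraries were handled. DESeq2 over all 12 libraries called *Sox10* lower (-0.76, adjusted p = 0.0363), against 3.32% of genes, and no other member. Without 4502, *Sox10* was at -0.97 (adjusted p = 0.00561), *Sox2* at -1.02 (0.00555), *Nab2* at -0.72 (0.00796) and *Yy1* at -0.61 (0.00936), so that 4 of 10 were called lower against 13.7% of all genes. Without both 4502 and 4503, 6 of 10 were called lower, the same 4 together with *Pou3f1* and *Pou3f2*, against 7.92% of genes. In limma-voom with sample quality weights, which gives a library less weight the more it departs from its group, 5 of 10 were called lower (*Sox10*, *Sox2*, *Nab2*, *Yy1* and *Pou3f2*) against 6.95% of genes. Of the KO libraries, only 4502 showed the GC dependence of the treated libraries. Without it, that dependence and the treatment divide the groups in the same way and cannot be told apart. No fit without 4502 was corrected for GC content. *Egr2* changed sign, from -0.21 ± 0.37 to 0.32 (adjusted p = 0.67) without 4503. Markers of myelinating Schwann cells moved the same way as *Sox10*, with summed levels of 31467 to 44282 CPM in niacin-treated and 42410 to 50301 CPM in untreated KO nerves, 5 of 5 log2 differences below 0, and 0 of the 5 at 0 CPM. Their part in the result was not tested.

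The comparison of niacin-treated *Mtmr2* KO with WT nerves gave the widest separation. The values of 9 of 10 regulators did not overlap between the groups. The 7 lower members were *Sox10*, *Pou3f1*, *Pou3f2*, *Nab2*, *Yy1*, *Jun* and *Sox2*, against 16.6% of all genes lower without overlap, and the 2 higher were *Nab1* and *Id2*, against 14.9% higher. Each of the 9 had the smallest exact permutation p, 0.0286, which follows from the lack of overlap and adds nothing to it. Only *Egr2* overlapped, at 133 ± 24.9 CPM (SD, n = 4) against 140 ± 19.0 in WT. The log2 differences were -0.92 ± 0.18 (SE) for *Pou3f2*, -0.80 ± 0.25 for *Pou3f1*, -0.71 ± 0.23 for *Sox10*, -0.61 ± 0.16 for *Yy1*, -0.55 ± 0.27 for *Sox2*, -0.39 ± 0.18 for *Nab2* and -0.37 ± 0.17 for *Jun*. *Id2* was at 0.30 ± 0.12 and *Nab1* at 0.21 ± 0.14. Promoting and opposing regulators were thus found on both sides.

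In the model over all 12 libraries no member and no gene was called (0.0% of 17257), the smallest adjusted p being 0.0833, which *Pou3f2* shared, and 4254 genes had an unadjusted p under 0.05, 6 members among them. DESeq2 over the same libraries called 1057 of 15100 genes, 819 lower and 238 higher, with *Pou3f2*, *Yy1* and *Pou3f1* among the lower ones. Both of these models take 1 spread for all groups, including the wide KO group. The part of that shared spread in the number of calls was not tested. When edgeR was fitted to only the WT and niacin-treated libraries, 8 of 10 members were called, 7 lower against 17.6% of genes lower and *Id2* higher against 16.3%. Adjusted p values there were 0.00151 for *Pou3f2*, 0.00216 for *Yy1*, 0.0031 for *Sox10*, 0.00441 for *Pou3f1*, 0.00594 for *Sox2*, 0.0161 for *Nab2*, 0.0272 for *Id2* and 0.0317 for *Jun*. *Nab1* missed the threshold at 0.0798 and *Egr2* was at 0.75.

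The dependence on GC content, described above, divided the same groups, and the members with the most GC-rich transcripts were among those that were lower. GC content of the longest transcript was 63.9% in *Pou3f1*, 61.8% in *Sox10*, 60.1% in *Nab2* and 55.5% in *Jun*, which are all in the highest 2 deciles of genes, and 45.2% in *Id2* and 47.2% in *Nab1*, which were higher. The other lower members were *Yy1* at 50.7%, *Sox2* at 50.5% and *Pou3f2* at 44.4%, the lowest of the 10. *Egr2*, which overlapped, was at 51.4%. After correction of each library for transcript GC content and length, the log2 difference from WT was -0.04 for *Nab2*, -0.13 for *Jun*, 0.07 for *Id2*, -0.31 for *Sox10* and -0.32 for *Pou3f1*, each nearer to 0 than before. *Pou3f2* stayed at -0.93, *Sox2* at -0.60 and *Nab1* at 0.21, and *Yy1* was at -0.43. No overlap remained for 4 members, *Pou3f2*, *Yy1* and *Sox2* lower against 10.5% of genes and *Nab1* higher against 11.1%. In the fit of only the 2 groups the 3 lower ones were called, with adjusted p of 0.00384, 0.00827 and 0.0128, against 7.74% of genes called lower, and no member was called higher, against 8.36%.

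Which members kept their difference depended on the stretch whose GC content was used. The coding parts of *Pou3f2*, *Sox2* and *Yy1* are richer in G and C (65.8%, 66.1% and 59.9%) than their whole transcripts (44.4%, 50.5% and 50.7%). When coding GC content was used in the correction, *Pou3f2* was at -0.40, *Sox2* at -0.25 and *Yy1* at -0.18 in the model over 12 libraries, with *Pou3f1* at -0.43, *Sox10* at -0.35 and *Id2* at 0.30. In the fit of the 2 groups *Pou3f2* (adjusted p = 0.0427) and *Sox10* (0.0489) were then called lower, against 10.7% of genes, and *Id2* (0.0403) higher, against 9.46%. *Pou3f2* was the only member called with both corrections. *Sox10*, *Pou3f1*, *Pou3f2*, *Nab2*, *Yy1* and *Sox2* were below 0 in the uncorrected model and both corrected models over 12 libraries, and *Nab1* and *Id2* were above 0. The dependence on GC content, the niacin treatment and the *Mtmr2* genotype divide the WT and treated libraries in the same way. Within this comparison they cannot be told apart.

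**Figure D4:**
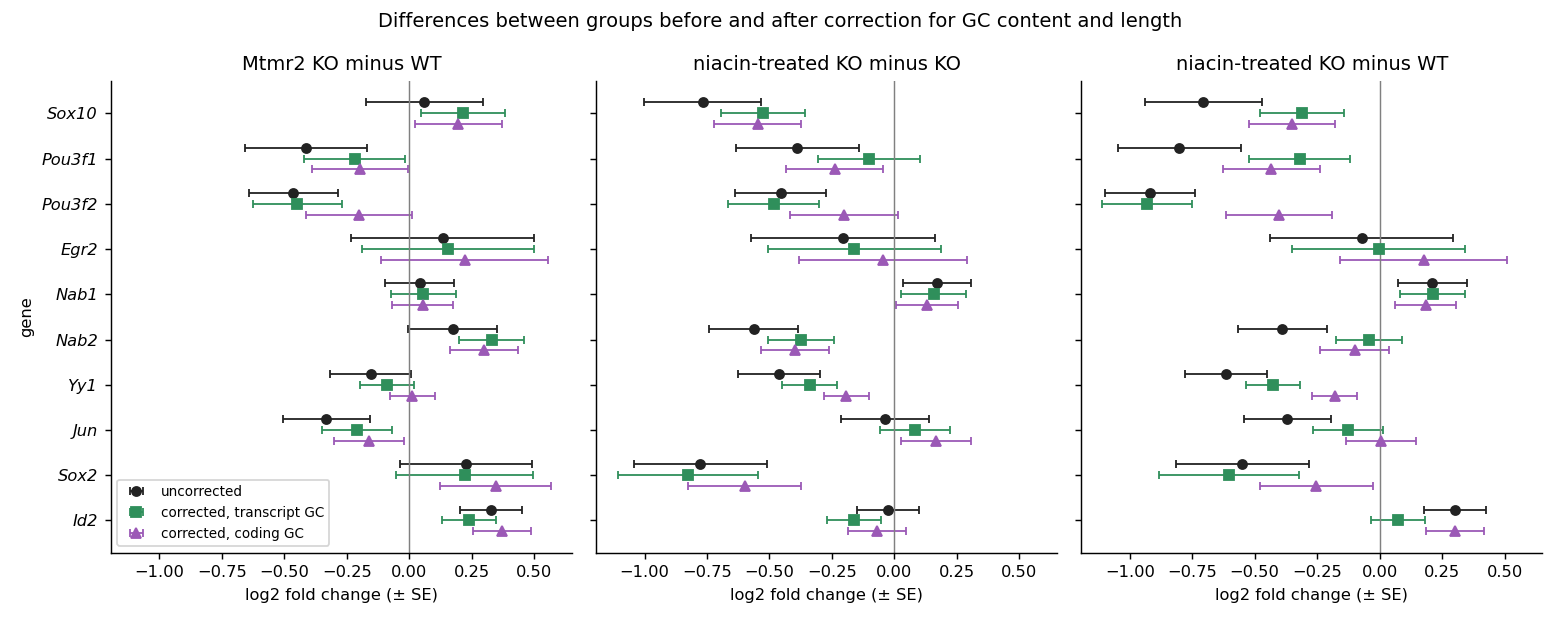
Log2 fold change ± SE (x axis) of each regulator (y axis) in the 3 comparisons, from edgeR over 12 libraries without correction (circles), with correction for transcript GC content and length (squares) and with correction for coding GC content and length (triangles). In niacin-treated KO minus WT, *Nab2* and *Jun* move to near 0 under both corrections, whereas *Pou3f2* stays at -0.93 with transcript GC content and moves to -0.40 with coding GC content.

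The targets and neighbours of the regulators were examined in lists fixed by name. Of 15 myelin genes activated by EGR2 and SOX10, none was called in any of the 3 comparisons in the model over 12 libraries. Their median log2 difference was 0.16 in KO against WT (all genes, 0.03), -0.53 in niacin-treated against untreated KO (all genes, -0.04), where 15 of 15 were below 0, and -0.18 in niacin-treated KO against WT (all genes, 0.02). With transcript GC correction these medians were 0.18, -0.29 and -0.04 in the same order. *Mag* was then at 0.0034 in niacin-treated against untreated KO. *Pmp22*, encoding a membrane protein of compact myelin, was at 26081 ± 2395 CPM (SD, n = 4) in WT, 31620 ± 2209 in KO and 28004 ± 4168 in niacin-treated KO nerves. *Mbp*, encoding myelin basic protein, was at 24368 ± 2276, 29779 ± 1059 and 26770 ± 5156 CPM in the same order. Both were higher in every KO library than in every WT library. *Prx*, encoding periaxin, was at 5899 ± 539, 6631 ± 1228 and 4587 ± 1075 CPM, with overlap throughout. Without 4502, 7 of the 15 were called lower in niacin-treated against untreated KO nerves (*Cnp*, *Cldn19*, *Prx*, *Pllp*, *Fa2h*, *Gjb1* and *Drp2*), against 13.7% of all genes, and without both 4502 and 4503, 4 were, against 7.92%. Neither of these fits was corrected for GC content. In the edgeR fit of only the 2 groups, 4 of 15 were called lower in niacin-treated KO than in WT nerves (*Cldn19*, *Pllp*, *Fa2h* and *Gjb1*), against 17.6% of all genes. Of these *Fa2h* was called after either GC correction, against 7.74% and 10.7%.

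Among 11 other regulators that promote myelination, including the Hippo pathway effectors YAP1, TAZ (*Wwtr1*) and TEAD1 and the chromatin remodellers CHD4 and SMARCA4, none was called in any comparison of the model over 12 libraries. Their median log2 difference in niacin-treated KO against WT was -0.22 and, after transcript GC correction, -0.17. *Zeb2*, which represses inhibitors of myelination, was at 332 ± 39.6 CPM (SD, n = 4) in niacin-treated KO and 267 ± 19.6 CPM in WT nerves without overlap, at a log2 difference of 0.31 ± 0.17 (adjusted p = 0.247). *Chd4* was lower without overlap, at 198 ± 29.0 against 276 ± 35.9 CPM (-0.48 ± 0.23, adjusted p = 0.216), and *Wwtr1* overlapped (191 ± 19.3 against 199 ± 5.79 CPM). *Smarca4* was lower without overlap, at 53.7 ± 6.38 against 88.2 ± 6.02 CPM (-0.72 ± 0.17, adjusted p = 0.0833), and at -0.33 after transcript GC correction. In the fit of only the 2 groups *Smarca4*, *Chd4* and *Nfatc4* were called lower, against 17.6% of genes, and *Zeb2* and *Hdac2* higher, against 16.3%. *Smarca4* was also called by DESeq2 over 12 libraries and in the fits of the 2 groups with either GC correction. Of 9 other regulators that oppose myelination, 8 were tested and none was called. *Notch1* was lower in niacin-treated KO than in WT nerves without overlap (30.9 ± 4.81 against 53.8 ± 10.9 CPM), with a log2 difference of -0.80 ± 0.24 (adjusted p = 0.105) that was -0.35 after transcript GC correction. *Id3* and *Id1*, relatives of *Id2*, were at -0.42 ± 0.19 and -0.14 ± 0.21 there (adjusted p = 0.197 and 0.681), opposite in sign to *Id2*. In the fit of only the 2 groups *Notch1*, *Id3* and *Id4*, 3 of 8, were called lower, against 17.6% of genes. They were also called after transcript GC correction (7.74% of genes), and *Id3* was not after coding GC correction (10.7%).

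Genes that JUN activates in repair Schwann cells were tested for 10 of 11, and none was called in any comparison of the model over 12 libraries. Their median log2 difference was 0.11 in KO against WT, where *Jun* itself was at -0.33. *Ngfr* was at 59.5 ± 7.73 CPM (SD, n = 4) in WT, 52.9 ± 25.7 in KO and 53.1 ± 15.3 in niacin-treated KO nerves, and *Cdh2* at 48.3 ± 4.22, 49.8 ± 10.6 and 40.9 ± 12.5 CPM, with overlap throughout. *Gfap* was lower in every niacin-treated than in every untreated KO library (10.3 ± 3.93 against 18.8 ± 4.33 CPM), at -0.87 ± 0.25 with an adjusted p of 0.0904. It was called lower there without 4502 (13.7% of genes), with limma-voom weights (6.95%) and with DESeq2 over 12 libraries (3.32%), but not without both 4502 and 4503. *Gap43* was at 9.12 ± 1.75 CPM in niacin-treated KO and 5.26 ± 1.87 CPM in WT nerves, with overlap, and was called higher in the fit of only the 2 groups, where 16.3% of genes were. Of the 17 immediate early genes, 1 was called. *Junb*, a JUN-family member, fell in niacin-treated against untreated KO nerves: it was at 29.9 ± 14.7 CPM (SD, n = 4) untreated and 11.1 ± 2.81 CPM treated, a log2 difference of -1.43 ± 0.28 (SE; edgeR adjusted p = 0.0401), while *Jun* differed by -0.04. *Junb* was at -1.03 (edgeR adjusted p = 0.0686) without 4503 and at -1.62 (0.00458) without 4502, and it was called in 13 of 27 alternatives.

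How the regulators varied together was described by Pearson's r of log2 CPM over the 12 libraries, which share groups, depth and the dependence on GC content, so no test is given. *Sox10* and *Nab2* were the most alike pair of members (r = 0.94), followed by *Sox10* and *Sox2* (0.89), *Yy1* and *Sox2* (0.88) and *Sox10* and *Yy1* (0.87). After transcript GC correction these were 0.83, 0.76, 0.85 and 0.64. *Sox2*, which opposes myelination, thus varied with *Sox10* and *Yy1* across these nerves, and *Nab1* ran against *Yy1* and *Sox2* (-0.75 for both, and -0.68 and -0.70 corrected). For *Egr2* r ran from -0.58 with *Nab1* (-0.51 corrected) to 0.46 with *Jun* (0.30 corrected). It was 0.43 with *Yy1*, 0.41 with *Sox2*, 0.25 with *Sox10* (0.0029 corrected), 0.11 with *Pou3f1* and -0.17 with *Pou3f2*.

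Across all tested genes, those most like *Sox10* were *Cerk*, *Csrnp2* and *Plekhg3* (each r = 0.98), and those most like *Nab2* were *Csrnp2* (0.96), *Mgat3* and *Sox10* (0.94 each). *Egr2* was most like *Hnrnpll* and *Rnf144b* (0.93 each) and *Lrrc61* (0.91). *Yy1* was most like *Phf13* (0.99), *Kdm5b* and *Kdm2a* (0.98 each), and *Nab1* was most like *Trip4* and *Cnn3* (0.98 each) and *Rabep1* (0.97). *Pou3f1* was most like *Map7d1*, *Dpysl5* and *Lrig1* (0.97 each). *Pou3f2* was most like *Csnk1g2* (0.95), *Mycn* (0.93) and *Ppp1r9b* (0.92), of which only *Mycn* stayed above 0.90 after transcript GC correction (0.91, against 0.13 and 0.22). *Jun* was most like *Gpc4*, *Wfs1* and *Dennd2a* (0.96 each), *Sox2* like *Ccdc6* (0.98), *Csnk1a1* and *Arhgef18* (0.97 each), and *Id2* like *Zcchc9* (0.95), *Pias1* and *Cnot8* (0.94 each). With 12 libraries and 17257 genes, high values of r arise for many genes.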

How the data were processed

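Polyadenylated RNA from 1 sciatic nerve per mouse was sequenced as paired reads of 150 bases. Alignment to GRCm38 used STAR, and the authors deposited whole-number read counts per Ensembl gene, which carry no normalization. The submitters' processing notes also name CASAVA 1.9 and DESeq2. The version of STAR, the counter, its annotation and its strand setting were not given in the sources used here. Tables of DESeq2 results by the authors hold fold changes and p-values for the 3 comparisons, and only their gene symbols were used.

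Counts were analysed with edgeR 4.0.16 in R 4.3.3. Genes were kept by filterByExpr, libraries scaled by TMM, and 1 quasi-likelihood model without covariates was fitted to 12 libraries. A gene counted as called where its p, adjusted by the Benjamini-Hochberg method over 17257 genes, was under 0.05. CPM, counts scaled to library size, use TMM-scaled library sizes, and log2 CPM a prior count of 2. Tests were two-sided, and single members were also tested by exact permutation (70 ways). Alternatives were DESeq2 1.42.0, limma-voom (limma 3.58.1), other scalings, filters and covariates (*Xist*), thinning to the smallest total, fits of 2 groups and fits without each library. Chosen after seeing the data were a correction of each library by natural splines (5 degrees of freedom) of GC content and length, for 17142 genes (14657 with coding GC content), and fits without 4502 and 4503. Coordinates, lengths and GC content are from GENCODE M21 (GRCm38), by identifier for 42548 of 43432 genes. The edgeR step was tested on simulated counts.

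The members and the gene lists were chosen with earlier results of these data known. Every member was given with its values. From other lists, genes called in a comparison were named, or otherwise the 3 with the highest mean CPM, and genes called only in alternatives were named after their values were seen. A gene of the myelin and myelinating Schwann cell lists is not reported here and was left out of their counts and sums. For each member the 3 genes with the highest r were named. Replicates were separate mice.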

Additional observations from a re-analysis of the deposited data

Results flagged for a closer look

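In 33 groups of 4 libraries (10 regulators and *Mtmr2* in 3 groups), 4 had a library whose gap to its nearest neighbour on the log2 scale took more of the group's range than Dixon's 95% limit allows, and chance gives about 1 in 20 such groups. *Sox10* was at 408 CPM in WT control 4500, *Nab1* at 122 CPM and *Id2* at 16.0 CPM in WT control 4498, and *Jun* at 26.1 CPM in niacin-treated *Mtmr2* KO 4508. Each was the lowest of its group. The WT gaps were small in size, with all 4 WT libraries within an SD of 0.14 on the log2 scale for *Sox10*, 0.08 for *Nab1* and 0.05 for *Id2*. No KO group passed that limit.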

How the results depend on the processing

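No member was called in *Mtmr2* KO against WT under any alternative. In niacin-treated against untreated KO, member calls went from 0 to 1 with DESeq2 over 12 libraries, 5 with limma-voom weights, 6 without 4502 and 4503, and 0 to 4 when single libraries were left out (4 without 4502). Over all genes, DESeq2 called 1059 of 17039 there and limma-voom 2007 of 17257. Without 4502 and 4503, 2223 of 17773 genes were called, and without 4502, 4180 of 17716. In niacin-treated KO against WT member calls went from 0 to 3 with DESeq2 over 12 libraries, 8 with DESeq2, 8 with edgeR on only the 2 groups, 8 with limma-voom weights, 1 without a filter, 3 with either GC correction on only the 2 groups, 8 without 4502 and 4503, and 0 to 5 when single libraries were left out (5 without 4502, 1 without 4503). Many other genes were called too. DESeq2 called 1057 of 15100 genes over 12 libraries and 5777 of 15639 on only the 2 groups, and edgeR 5586 of 16501 there. Limma-voom called 7311 of 17257, and the fit without a filter 311 of 33882. With GC correction they were 2641 of 16402 (transcript) and 2882 of 14285 (coding). Without 4502 and 4503 they were 5263 of 17773, without 4502 3826 of 17716 and without 4503 304 of 17430. In KO against WT, log2 differences changed sign for *Sox10* (-0.0083 with library totals, -0.20 to 0.25 when single libraries were left out), *Egr2* (-0.086 with limma-voom weights, -0.089 without 4502 and 4503, -0.40 to 0.41), *Nab1* (-0.014 with limma-voom weights, -0.042 with library totals, -0.033 without a filter, -0.085 to 0.13), *Nab2* (-0.026 to 0.31), *Sox2* (-0.035 to 0.45) and *Yy1* (0.013 with coding GC correction, 0.015 with it on only the 2 groups). In niacin-treated against untreated KO they did so for *Egr2* (0.013 without 4502 and 4503, -0.50 to 0.32 when single libraries were left out), *Jun* (0.050 with library totals, 0.17 with coding GC correction and 0.17 with it on only the 2 groups, 0.083 with transcript GC correction and 0.084 with it on only the 2 groups, -0.20 to 0.082) and *Id2* (0.13 with limma-voom weights, 0.088 with library totals, 0.12 without 4502 and 4503, -0.090 to 0.036). In niacin-treated KO against WT they did so for *Egr2* (0.18 with coding GC correction and 0.18 with it on only the 2 groups, 0.0043 with transcript GC correction on only the 2 groups, -0.22 to 0.013 when single libraries were left out) and *Jun* (0.0073 with coding GC correction, 0.018 with it on only the 2 groups). The cause of these changes was not tested. DESeq2 moved the median log2 difference of all genes to 0.14 in KO against WT and -0.12 in niacin-treated against untreated KO. Per kilobase of the longest transcript in place of all exons, *Jun* and *Nab2*, and *Pou3f1* and *Yy1*, changed places in WT. No paired analysis was possible because the groups share no replicate numbers. With 115 to 465 counts, *Sox2* has the least depth of the set.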
